A study of Mus musculus with 2 samples.

Results

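The mitotic and G2 progenitor cells described here were 400 of 3055 cells (13.1%) from neural stem cell colonies of the mouse forebrain. They were the cells in which 8 markers of late cell cycle stages (Ube2c, Aurka, Top2a, Nusap1, Cdk1, Ccnb1, Cenpf and Tpx2) took the largest share of all transcripts. Because measured values chose these cells, their contrast with the remaining 2655 cells is a description and was not tested, and the 8 markers, whose own values are given once below as a description, are left out of every other comparison. The colonies were primary neurospheres of the CD1 strain, started from lateral ventricle walls of embryos whose age the labels do not give. They were grown without serum in leukemia inhibitory factor (LIF) at 10 ng/mL, a cytokine used to culture primitive neural stem cells, and counted at 7 to 10 days with a smallest diameter of 50 μm. An additive called EFH is mentioned in the protocol with no explanation, and the protocol does not say whether embryos were pooled. Transcripts were read by Drop-seq, in which a droplet gives each cell a barcode and each captured polyadenylated molecule a unique molecular identifier (UMI). There are 2 listed samples, both of this one kind, the series text speaks of nuclei where the protocols speak of dissociated cells, and nothing ties a barcode to a sample. The count table was therefore treated as 1 sample without replicates, and every interval below is a 95% interval that covers counting error only.

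A dividing cell copies its DNA in S phase, prepares in G2 and separates the copies in mitosis. Entry into mitosis is driven by CDK1 bound to cyclin B, and exit follows when the anaphase-promoting complex marks cyclins and securin for destruction. Most genes of this program are switched on together late in the cycle by the MuvB complex with B-MYB and FOXM1, whereas genes for DNA replication are switched on earlier by E2F factors. In the embryonic forebrain the main dividing cells are radial glia along the ventricle and the progenitors they give rise to.

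The table held 17591915 UMIs over 19144 genes and 4000 barcodes, of which 945 were left out for fewer than 500 detected genes, more than 10% mitochondrial UMIs or fewer than 2000 UMIs. The 400 cells had from 2006 to 54060 UMIs with a median of 6494, whereas the other 2655 cells had a median of 4322, so the selected cells were 1.503 times deeper by the median. They detected a median of 2824 genes against 2143, and mitochondrial transcripts took a median of 2.47% of their UMIs against 2.96%. Of the 400 cells, 176 lay above 7316 UMIs, the 80th percentile of all 3055 cells, and 47 below the 20th percentile. In a single cell barcode, a larger cell, a pair of cells in one droplet and a cell with more captured RNA cannot be told apart, and the part of depth in the contrast was not tested. Levels below are therefore given as CPM, the UMIs of a gene per 1000000 UMIs of the same cells with the 8 markers removed.

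The marker share that chose the cells ran from 0.462% to 1.39% with a median of 0.653%, and in the other cells it had a median of 0.0469%. The ranking has no step at the cut. The lowest of the 400 cells had 12 marker UMIs among 2597 (0.46207%), and the highest cell outside had 58 among 12555 (0.46197%). Within 10% of the cut lay 48 of the 400 cells and 54 others, so the set is a range of a score cut at a fixed number of cells. As the choice by their sum and the greater depth favour, 252 of the 400 cells held a UMI of all 8, and the smallest number detected was 3. Their summed level was 6.24 times that of the other cells (6.11 to 6.38), from 4.28 for Tpx2, a spindle assembly factor, to 9.71 for Ube2c, the ubiquitin-conjugating enzyme of the anaphase-promoting complex. These are the values that made the choice. When the cells were chosen by Ube2c, Aurka, Top2a and Nusap1 alone, 88.75% of the cells were the same. The markers not used in that choice then stood at 4.73 times the other cells for Cdk1, 6.16 for Ccnb1, 5.92 for Cenpf and 3.78 for Tpx2. All 8 are markers of the same late stages, so these values describe the choice and support nothing beyond it.

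**Figure D1:**
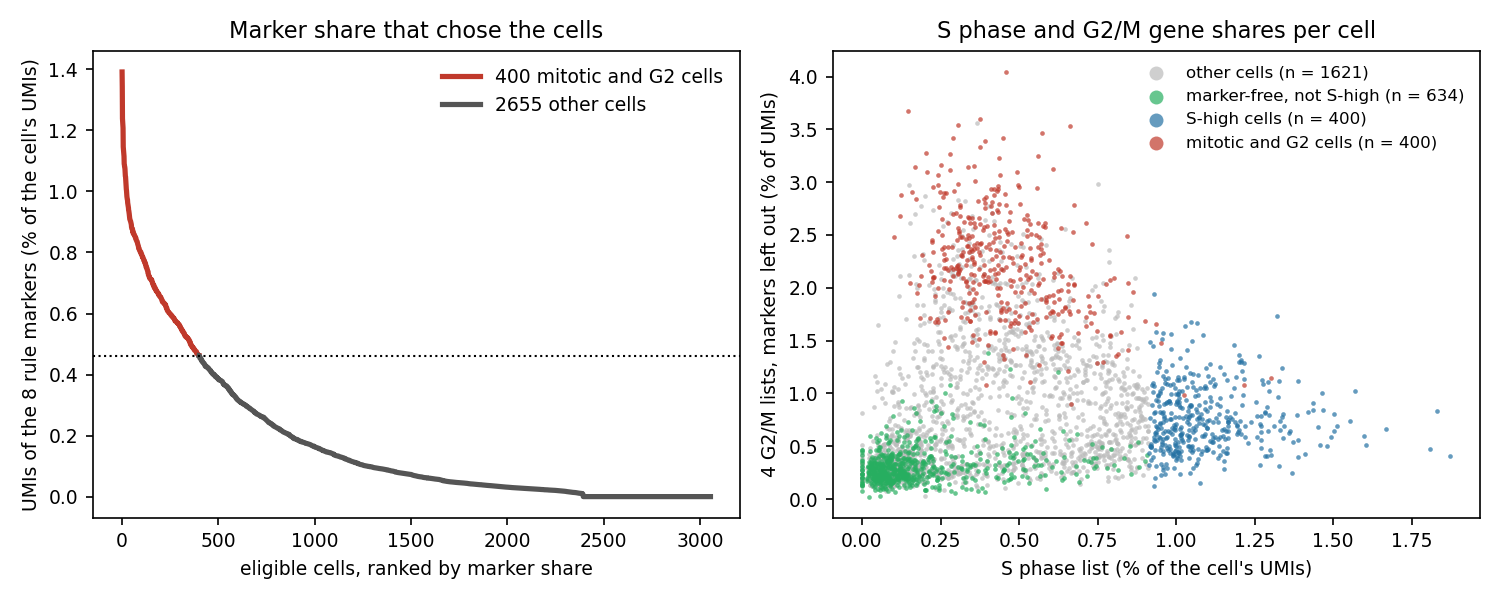
Left, the share of UMIs from the 8 markers (percent, vertical axis) for all 3055 cells in ranked order, with the 400 selected cells in red and the lowest selected share as a dotted line. Right, each point is a cell, with the share of its UMIs from the S phase list (horizontal) and from 4 lists of G2 and M phase genes without the markers (vertical). The selected cells lie high on the vertical axis with a median of 2.18%. The cells marked for the highest S phase share lie apart from nearly all selected cells. They were chosen by that share among the other cells, which favours this separation.

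Across 9716 genes with at least 100 UMIs over the 3055 cells, 241 were called above the other cells, which is 2.48% of the genes, and 82 were called below, which is 0.844%. A gene was called when the whole interval of its ratio lay beyond 1.5-fold in that direction. The median ratio over all 9716 genes was 0.969. These shares belong to the contrast that chose the cells, so the counts per list that follow describe the cells and support nothing. To place them in the cycle, the 400 cells were also set beside 2 sets of other cells: the 400 with the highest share of a list of S phase and replication genes (S-high cells, median 4556.5 UMIs), and the 661 with no UMI of any of the 8 markers (marker-free cells, median 3530 UMIs). These sets share 27 cells. Against S-high cells, 160 of 6691 genes (2.39%) were called above and 105 (1.57%) below. Against marker-free cells, 394 of 7024 (5.61%) were above and 165 (2.35%) below.

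The 4 lists of G2 and M phase genes took 22197 CPM in the 400 cells and 7265 CPM in the others, a ratio of 3.06 (3.03 to 3.09). Of their 86 genes, 83 had enough UMIs to be measured, 75 of these were called above and 0 below. The ratio was 2.82 (2.77 to 2.87) against S-high cells, where 62 of 83 were above and 1 below, and 7.09 (6.93 to 7.26) against marker-free cells, where 74 of 79 were above. Per cell, these genes took from 0.898% to 4.04% of UMIs. None of the 400 cells lay below the median of the other cells (0.499%), while 58 of the other cells (2.18%) lay above the median of the 400.

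Among kinases, cyclins and phosphatases of mitosis, 19 of 20 measured genes were called above, with a summed ratio of 3.11 (3.03 to 3.19). Ccnf encodes cyclin F, the substrate receptor of a ubiquitin ligase that works in G2. Ccnf (chromosome 17, 24222198 to 24251484) was at 93.9 CPM in the 400 cells, 17.2 in S-high cells and 2.32 in marker-free cells, and its ratio to all other cells was 7.59 (6.24 to 9.26). With only the 200 highest cells chosen, that ratio was 4.97. Plk1 encodes the polo-like kinase that drives mitotic entry and spindle assembly. Plk1 (chromosome 7, 122159439 to 122169873) was at 285 CPM against 50.0 in the other cells, a ratio of 5.70 (5.15 to 6.32). Nek2, a centrosome kinase, and Bora, the cofactor through which Aurora A activates PLK1, stood at 5.57 and 5.34. Aurkb, the kinase of the chromosomal passenger complex, stood at 4.44, and the 2 mitotic phosphatase genes Cdc25b and Cdc25c at 3.29 and 3.39. The exception was Pkmyt1, which encodes a kinase that holds CDK1 inactive. It had 23.4 CPM in the 400 cells and 23.3 in the others (ratio 1.003, 0.760 to 1.31), and at 56.7 CPM it was higher in S-high cells.

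At equal depth Plk1 and Ccnf also differed between the sets of cells. After every cell was thinned to 2000 UMIs, at least 1 Plk1 UMI was left in 39.5% of the 400 cells, 5.5% of S-high cells and 1.97% of marker-free cells. For Ccnf the shares were 18.5%, 4.25% and 0.605%. A rough gauge of free RNA was the 30 cells with the highest share of an immature neuron list, too few to fix it closely. Of these cells, 1 (3.33%) held a Plk1 UMI and 0 held one of Ccnf. By the rough rule that a count of 0 allows 3, the Ccnf share could be up to 10%. These cells are not shown to be outside the cycle, and 1 was also an S-high cell, so their UMIs need not be free RNA. Before thinning, those 30 cells had a median of 3594 UMIs.

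Genes of the anaphase-promoting complex, the spindle checkpoint and mitotic exit had a summed ratio of 2.13 (2.08 to 2.18), with 10 of 14 measured genes called above. Cdc20 encodes the activator that turns the complex on at anaphase. Cdc20 (chromosome 4, 118432901 to 118437352) was at 763 CPM in the 400 cells, 99.1 in S-high cells and 29.4 in marker-free cells, with a ratio to the others of 4.19 (3.95 to 4.44). Fzr1, encoding the activator CDH1 that takes over at mitotic exit, stood at 3.72 and Espl1, encoding separase, the protease that cuts cohesin, at 4.04. Pttg1, encoding securin, the inhibitor of separase, stood at 2.49. Cdca2, which recruits a phosphatase to chromosomes as they exit mitosis, led the list at 4.52. The genes not called were 3 core subunits of the complex, Anapc11, Anapc13 and Cdc26, at 1.17, 0.999 and 0.908, and the microtubule-associated gene Psrc1 at 1.204. Only Cdc27 of the core subunits in the list was called, at 1.75 (1.51 to 2.02).

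The spindle, kinesin and cytokinesis list was the most uniform, with 28 of 28 measured genes called above and a summed ratio of 3.59 (3.53 to 3.65). Prc1 bundles the microtubules of the central spindle between the separating chromosomes. Prc1 (chromosome 7, 80294450 to 80316259) was at 1302 CPM against 172 in the others, a ratio of 7.57 (7.18 to 7.97). Its UMI count per selected cell ran from 0 to 66 with a median of 8. After thinning, a Prc1 UMI was left in 86.2% of the 400 cells, 35.8% of S-high cells and 6.2% of marker-free cells, next to 6.67% of the 30 neuron-list-high cells. The cytokinesis kinesins Kif14 and Kif23 stood at 6.82 (4.91 to 9.53) and 5.43, and Hmmr, a spindle pole protein, at 4.86. Kif14 rested on 94 UMIs in the 400 cells, and its ratio was 11.6 among cells of at least 4000 UMIs and 14.1 with 800 cells chosen. The lowest ratio in the list was 2.35, for the dynein regulator Nde1. Arl6ip1, a membrane protein gene of the same list, was at 1842 CPM against 716, a ratio of 2.57, and at 442 and 493 CPM in S-high and marker-free cells.

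Of the kinetochore and centromere genes, which build the attachment between chromosome and spindle, 18 of 21 were called above, with a summed ratio of 3.13 (3.07 to 3.19). Cenpe, the kinetochore kinesin, was at 476 CPM against 89.6, a ratio of 5.31 (4.92 to 5.74). It was followed by Sgol2, the protector of centromeric cohesin, at 5.03, and Spc25, an NDC80 complex subunit, at 4.70. Cenpa, the centromeric histone itself, differed most from S-high cells within this list's named genes, at 687 CPM in the 400 cells and 75.3 in S-high cells, a ratio of 9.12, while marker-free cells had 53.7. The 3 genes not called were Zwint (1.13, 1.04 to 1.23), Cenpk (1.35) and the cohesin regulator Cdca5 (1.58). Zwint was detected after thinning in 56.7% of the 30 neuron-list-high cells and in 36.2% of the 400. Several ratios in these lists rested on where the line between the cells was drawn. With 800 cells chosen in place of 400 they were 8.88 for Nek2, 8.53 for Kif23, 7.59 for Hmmr and 8.36 for Cenpe.

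**Figure D2:**
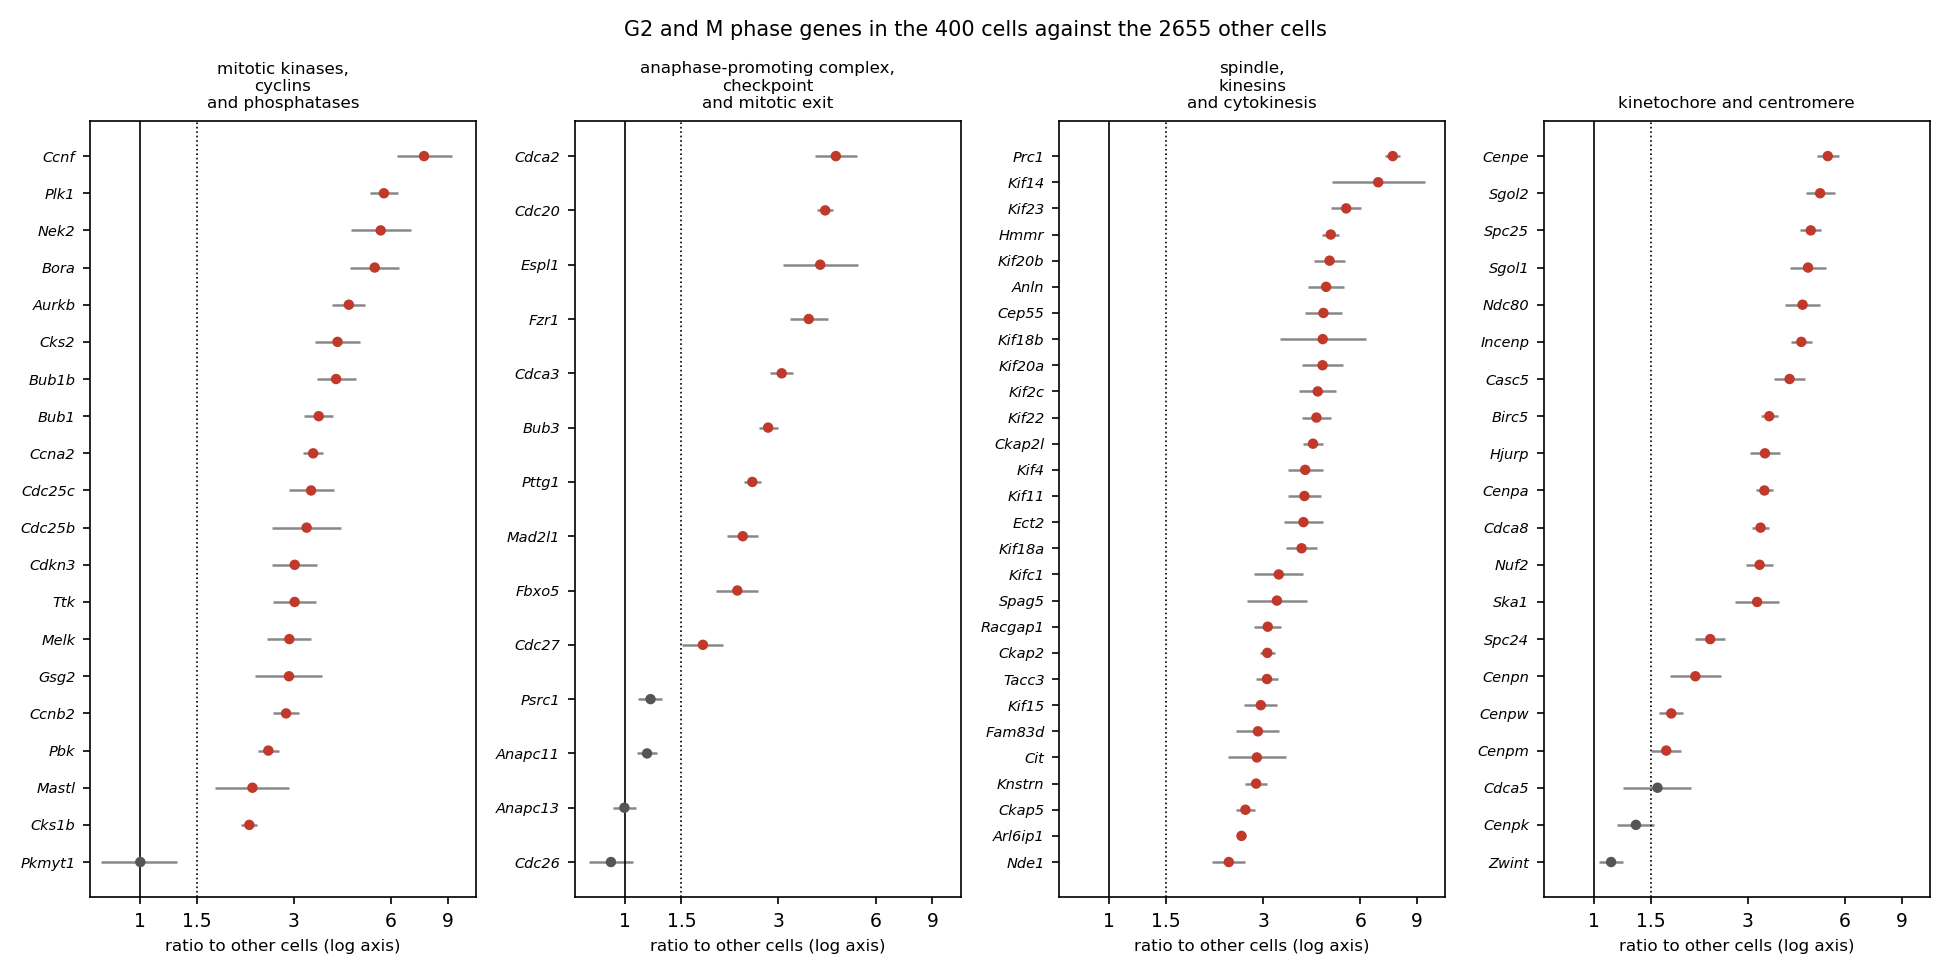
Ratio of the level in the 400 cells to that in the 2655 other cells (log axis) for the measured genes named on the axes, from the 4 lists of G2 and M phase genes, with the exact interval as a line. Red points are called above, the solid line marks a ratio of 1 and the dotted line 1.5. Most points are red, and Pkmyt1, Anapc13 and Cdc26 lie at or near 1.

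Promoters of these genes were examined for letters that the factors of the 2 programs are known to read. The sequences are RefSeq promoters on GRCm38.p6, the build also called mm10, and span 250 bases before to 50 after the annotated start. Each motif was searched on both strands. The cell cycle homology region (CHR), bound by the MuvB complex, was searched as TTTGAA or TTCAAA, and the CCAAT box, bound by NF-Y, as CCAAT or ATTGG. Matches of different motifs may overlap. A promoter was found by symbol for 60 of the 75 G2 and M phase genes called above. Of these, 40 (66.7%) held a CHR, 45 (75%) a CCAAT box and 34 (56.7%) both. Over all 27025 genes with a promoter the shares were 20.2%, 41.1% and 7.97%, and over the 7280 measured genes with one they were 13.7%, 43.9% and 5.87%. The E2F motif was searched as TTTCCCGC or TTTGGCGC and their reverse complements. It was held by 3 of the 60 genes (5%), by 10 of 35 genes of the S phase list with a promoter (28.6%), by 1.80% of all genes and by 3.90% of the measured genes, so the 60 genes lay near the latter share. In the S phase list, 4 of 35 genes (11.4%) held a CHR and 23 (65.7%) a CCAAT box. A match describes the letters in this window and is neither a shown binding site nor a cause of the levels.

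Not all of the 75 called genes were examined for the 120 bases before the RefSeq start. Among those examined, 16 held both a CHR and a CCAAT box in these bases. Of these 16, genes with at most 30 of these bases inside the GENCODE gene were kept. The 6 of them with the highest ratios are shown in full, so that the letters of both motifs can be read in place. Called genes that were not examined may have higher ratios. That both motifs fall within these bases was a condition of the choice. Each is given 5′ to 3′ on the gene's strand, with matches to either motif in capitals. Besides Prc1, Cdc20 and Espl1 they are Ckap2l and Kif11, which encode a spindle protein and the kinesin that pushes spindle poles apart, and Ect2, the exchange factor that starts cytokinesis. Their ratios to other cells were 4.28 for Ckap2l, 4.03 for Kif11 and 4.001 for Ect2, and with 800 cells chosen Ckap2l stood at 7.04 and Ect2 at 6.68. The positions are chr7:80294356-80294475 (plus strand) for Prc1, chr2:129297213-129297332 (minus) for Ckap2l, chr4:118437344-118437463 (minus) for Cdc20, chr15:102296173-102296292 (plus) for Espl1, chr19:37376262-37376381 (plus) for Kif11 and chr3:27153879-27153998 (minus) for Ect2.
Prc1: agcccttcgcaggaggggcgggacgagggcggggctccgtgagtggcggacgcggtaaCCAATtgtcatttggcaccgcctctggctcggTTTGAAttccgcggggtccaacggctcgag
Ckap2l: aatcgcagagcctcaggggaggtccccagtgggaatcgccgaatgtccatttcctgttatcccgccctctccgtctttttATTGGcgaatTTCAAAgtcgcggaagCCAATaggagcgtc
Cdc20: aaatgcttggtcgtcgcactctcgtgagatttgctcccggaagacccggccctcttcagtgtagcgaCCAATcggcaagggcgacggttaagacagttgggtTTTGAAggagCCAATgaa
Espl1: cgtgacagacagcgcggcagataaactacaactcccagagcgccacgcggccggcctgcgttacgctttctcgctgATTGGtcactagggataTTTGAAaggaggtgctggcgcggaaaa
Kif11: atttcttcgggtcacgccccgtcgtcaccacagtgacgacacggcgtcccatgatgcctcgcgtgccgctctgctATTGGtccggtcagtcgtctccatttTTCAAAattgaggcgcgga
Ect2: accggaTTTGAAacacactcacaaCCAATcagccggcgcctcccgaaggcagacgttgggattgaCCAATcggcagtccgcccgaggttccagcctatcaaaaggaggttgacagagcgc

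**Figure D3:**
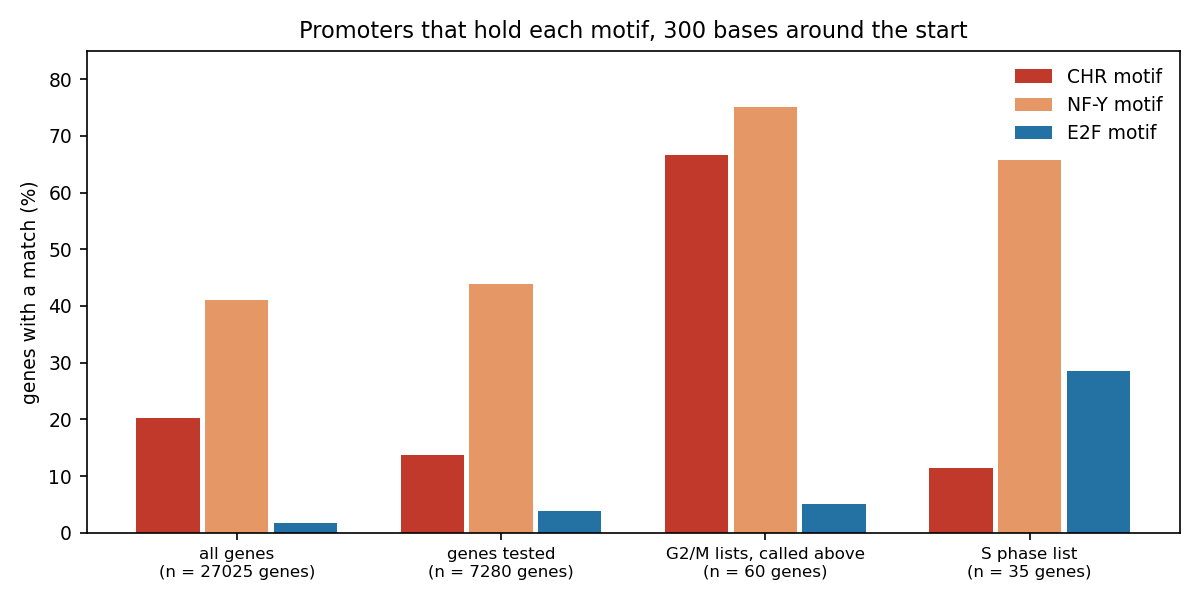
Percent of genes whose promoter (300 bases around the RefSeq start) holds each of 3 motifs, for all 27025 genes, the 7280 measured genes, the 60 G2 and M phase genes called above and the 35 genes of the S phase list; NF-Y motif means the CCAAT box. The CHR bar stands at 66.7% for the G2 and M phase genes and at 11.4% for the S phase list, and the E2F bar at 5% and 28.6%.

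Few genes for the factors themselves were called. Of 11 measured transcription factor genes of the list, Foxm1 was the only one called above, at 45.05 CPM against 14.6 (ratio 3.09, 2.46 to 3.87), and E2f1 the only one called below, at 5.16 against 16.1 (0.320, 0.176 to 0.539). E2f1 rested on 15 UMIs in the 400 cells and stood at 40.0 CPM in S-high cells, and its ratio was 0.573 with 800 cells chosen. Mybl2, which encodes B-MYB, had 5 UMIs in the 400 cells and 37 in the others and was too rare to measure. The MuvB subunit gene Lin54 stood at 1.24 (0.934 to 1.62), an interval that includes 1.

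Chromosome condensation and chromatin genes had a summed ratio of 2.03 (1.99 to 2.06), with 11 of 18 called above. Mki67, encoding the Ki-67 protein that coats mitotic chromosomes, was at 663 CPM against 189 (3.51, 3.31 to 3.73). A Mki67 UMI was left after thinning in 74.5% of the 400 cells, 35.2% of S-high cells, 5.9% of marker-free cells and 0 of the 30 neuron-list-high cells. The condensin genes Ncapg and Smc4 stood at 3.49 and 2.80, the histone variant gene H2afx at 3.39 and the heterochromatin gene Cbx5 at 1.23, which was not called. In the list of tubulins, the spindle's building blocks, and stathmin, 5 of 11 genes were called above, namely Tuba1c (3.86), Tubb4b (3.07), Tuba1b (2.05), Tubb6 (1.98) and Tubb5 (1.85), while Tuba1a stood at 1.199. Tuba1a, Tuba1b and Tuba1c are near-identical copies that can share reads, and their separate values are uncertain. In nuclear transport, 2 of 12 genes were called above, Nup37 (2.86), a nuclear pore gene whose protein also sits at kinetochores, and Rangap1 (2.35), the activator of the RAN GTPase.

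The S phase and replication list took 4516 CPM in the 400 cells and 4773 CPM in the others, a ratio of 0.946 (0.928 to 0.964). The side of 1 on which this ratio fell was not stable: it was 1.04 with every cell thinned to 2000 UMIs, 1.01 without the 5% of cells with the most UMIs, 1.003 as a mean over cells and 1.21 with 800 cells chosen. Against S-high cells the ratio was 0.419 with 38 of 46 genes called below, a direction that the choice of those cells by this list fixed. Against marker-free cells it was 2.13 (2.06 to 2.20) with 18 of 37 called above. Per cell, the list took from 0.101% to 1.30% of UMIs in the 400 cells (median 0.428%), and 5 of the 400 reached the lowest value of the S-high cells, 0.912%.

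Within the list, genes of the G1 to S transition stood lower than those for making DNA precursors. All 47 genes were measured, and 6 were called below the other cells, with 0 called above. Ung, the uracil-DNA glycosylase, had 14 UMIs in the 400 cells, or 4.81 CPM, against 50.6 in the others and 131 in S-high cells (ratio 0.0951, 0.0517 to 0.161). Its ratio moved between 0.0482 as a mean over cells and 0.207 with 800 cells chosen. Ccne2 and Ccne1, the E-type cyclins that start S phase, stood at 0.199 and 0.436, and the origin licensing genes Cdc6 and Cdt1 at 0.221 and 0.339. The histone chaperone gene Chaf1b stood at 0.270. With 800 cells chosen, Ccne2, Ccne1, Cdc6, Cdt1 and Chaf1b moved to between 0.390 and 0.663. Of the DNA precursor genes, the ribonucleotide reductase genes Rrm1 and Rrm2 stood at 1.499 and 1.24, and the thymidine kinase gene Tk1 at 1.66 (1.48 to 1.86). Pcna, the sliding clamp of replication, stood at 0.925 (0.853 to 1.001), at 252 CPM in the 400 cells, 622 in S-high cells and 106 in marker-free cells.

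The cyclin genes were highest in different sets of cells. The D-type cyclin genes Ccnd1 and Ccnd2, which act in G1, were at 2003 and 1047 CPM in the 400 cells and at 2798 and 1933 CPM in marker-free cells, and neither was called against all other cells (0.789 and 0.659). Ccne2 was at 15.8 CPM in the 400 cells, 248 in S-high cells and 30.5 in marker-free cells. Ccna2, the cyclin of S phase and G2, was at 432, 164 and 18.9 CPM in the same order. Ccnb2, a mitotic cyclin, was at 265, 55.3 and 36.3 CPM. Each of Ccna2, Ccnf and Ccnb2 was thus highest in the 400 cells, and Ccne2 was highest in S-high cells, which its place in the list that chose them favours. The G1 kinase genes Cdk4, Cdk6 and Cdk2 stood at 0.958, 0.921 and 0.857 against the other cells.

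Of the CDK inhibitors, which brake these kinases, 3 of 7 were called above. Cdkn2c and Cdkn2d, encoding the CDK4 and CDK6 inhibitors p18 and p19, were at 134 and 169 CPM against 44.5 and 59.7, ratios of 3.01 (2.65 to 3.43) and 2.83 (2.53 to 3.17). Cdkn1b, encoding p27, stood at 238 CPM against 145, a ratio of 1.64 (1.51 to 1.79), and was also called above S-high cells (1.85) and marker-free cells (1.89). Cdkn1a, encoding the p53-induced inhibitor p21, was at 847 CPM in the 400 cells, 942 in S-high cells and 984 in marker-free cells, a ratio of 0.887 (0.849 to 0.926) to all others, and a Cdkn1a UMI was left after thinning in 72.8% of the 400 cells. Cdkn2a and Cdkn2b stood at 0.908 and 0.994. Cdkn1c, encoding p57, stood at 1.24 (0.941 to 1.61), and at 2.04 with the 200 highest cells, 1.90 with thinned cells and 1.92 against other cells weighted to the same depths.

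**Figure D4:**
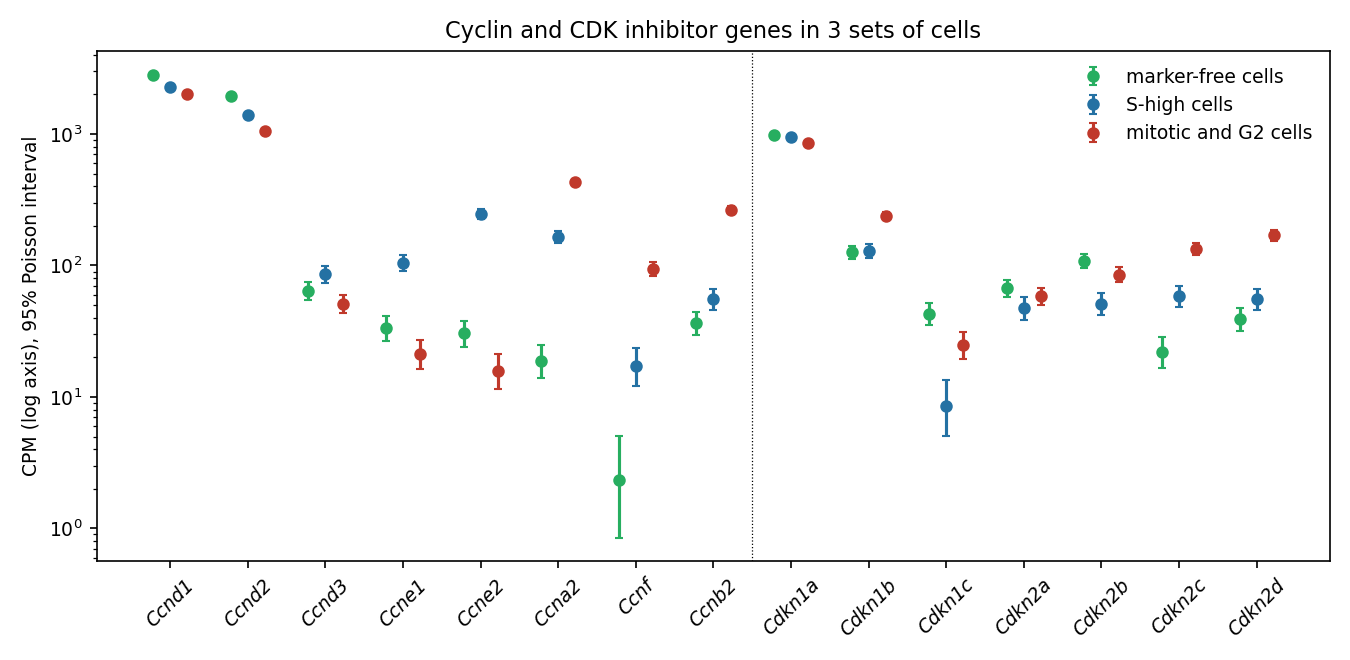
Levels in CPM (log axis) of cyclin genes (left of the dotted line) and CDK inhibitor genes (right) in marker-free cells (green), S-high cells (blue) and the 400 mitotic and G2 cells (red), with exact Poisson intervals. Ccnf runs from 2.32 in marker-free cells to 93.9 in the 400 cells, Ccne2 peaks at 248 in S-high cells, and Cdkn1a lies between 847 and 984 in all 3 sets.

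Along the marker share itself, the lists differed by degrees. The cells with markers outside the 400 were ranked by their share and divided into 4 sets of 498 or 499, and the 400 into 4 sets of 100. The G2 and M phase lists went from 3129 CPM in marker-free cells to 14300 in the highest outside set, 18705 in the lowest 100 of the 400 cells and 26402 in the highest 100. The S phase list was highest outside the 400, at 7014 CPM in the set next to the highest, and stood at 5068 CPM in the lowest 100 and 3928 in the highest 100. Ccne2 had its highest level, 143 CPM, in the same outside set and 11.5 CPM in the highest 100. Within the 400 cells, Ccnb2 was at 169, 217, 321 and 356 CPM from the lowest to the highest 100, whereas Ccna2 was at 375, 415, 461 and 478 CPM. Median depth hardly differed between these 4 sets, from 6346.5 to 6619 UMIs.

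**Figure D5:**
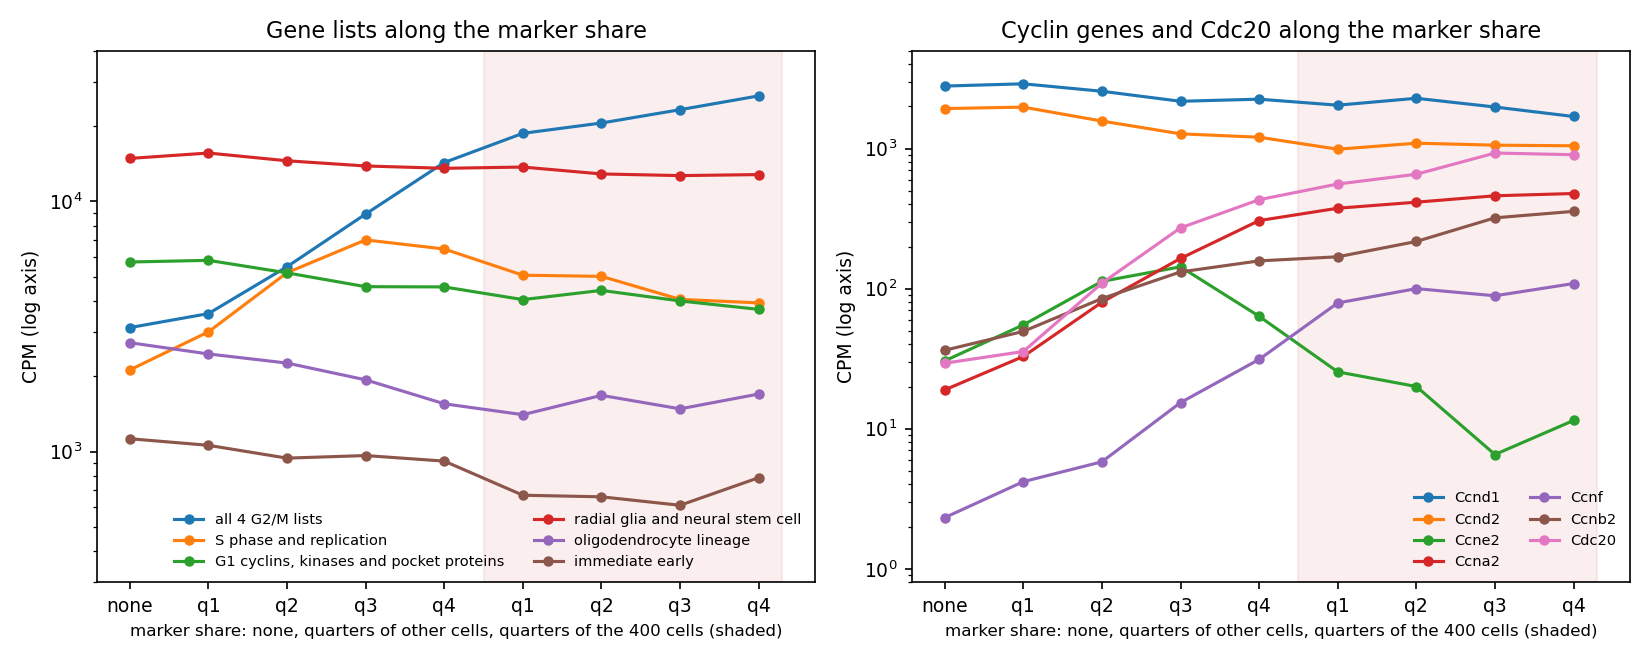
Levels in CPM (log axis) of 6 gene lists (left) and of 6 cyclin genes and Cdc20 (right) in marker-free cells, in 4 sets of other cells of rising marker share and in 4 sets of 100 of the selected cells (shaded). The G2 and M phase line climbs across all sets to 26402 CPM, and the S phase and Ccne2 lines peak before the shaded part.

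The S phase share differed between the 400 cells, and how much of this was counting error was not tested. Choosing among these cells by that share favours other replication genes in the set where it is high. The 100 with the highest S phase share (0.555% to 1.30%, median 5851 UMIs) were set beside the 100 with the lowest (0.101% to 0.332%, median 5612 UMIs), with the markers and the S phase list left out. Of 2698 genes with at least 100 UMIs in the pair of sets, 10 were called above (0.371%) and 4 below (0.148%). Of those above, some are known from DNA replication: Dnmt1, the maintenance DNA methyltransferase (1.94), Esco2, which joins sister chromatids in S phase (2.27), Rfc3, a clamp loader subunit (2.24), Tipin, a replication fork protein (2.14), and the replication-linked histone gene Hist1h2al (4.79, 3.91 to 5.91). The others above, not sorted here by function, were Apoe (2.75), Zmiz1 (2.32), the linker histone gene H1f0 (1.89), Pcna-ps2 (2.31) and 2810417H13Rik (1.83). Apoe was called below in the 400 cells against the other cells. Pcna-ps2 is a copy of Pcna whose value is uncertain. Hist1h2al belongs to a family of near-identical copies, so its value is uncertain. Those below were Arl6ip1 (0.549), the asparagine synthetase gene Asns (0.417), Ly6e (0.419) and Tmem158 (0.264). The 4 lists of G2 and M phase genes had a ratio of 0.829 (0.809 to 0.849) between the high and low sets, with 0 of 69 genes called above and 1 below. Ccnb2, Cenpa, Cdc20 and Pttg1 stood at 0.539, 0.628, 0.649 and 0.614, with intervals below 1 but not wholly beyond 1.5-fold. Mki67, Aurkb and Kif20b leaned the other way, at 1.33, 1.34 and 1.34, with intervals above 1. Marker share had medians of 0.586% in the high set and 0.676% in the low set.

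Progenitor identity genes were close to their level elsewhere. The radial glia and neural stem cell list took 13018 CPM in the 400 cells and 14469 in the others, a ratio of 0.8997 (0.890 to 0.910), with 1 of 15 measured genes called above and 0 below. Fabp7, a fatty acid carrier typical of radial glia, was at 6724 CPM against 7351, and a UMI of it was left after thinning in 99.8% of the 400 cells. Vim and Nes, the filament genes of radial glia, stood at 0.844 and 0.822, and the stem cell factor gene Sox2 at 498 CPM against 416, a ratio of 1.197 (1.13 to 1.27). Transcripts of Fabp7, Vim, Nes and Sox2 were thus present in the 400 cells, without a comparison with free RNA. Gfap, the filament of astrocytes and adult stem cells, had 0 UMIs in the 400 cells and 10 in the others, and 0 UMIs allow up to 3 in the 400 cells. The gene called above was Pax6 (chromosome 2, 105668900 to 105697364), a dorsal forebrain and radial glia transcription factor, at 33.7 CPM against 17.2 (1.96, 1.53 to 2.495), which rested on 98 UMIs in the 400 cells.

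Genes of fates that progenitors turn to were lower or similar. In the oligodendrocyte list, Olig1, a transcription factor of ventral progenitors, was at 854 CPM in the 400 cells, 1278 in S-high cells and 1712 in marker-free cells, a ratio of 0.633 (0.606 to 0.660) to all others. Its partner Olig2 stood at 0.932. In the intermediate progenitor and proneural list, Btg2 and Gadd45g, genes of cells about to stop dividing, were called below at 0.528 and 0.4995 (Gadd45g at 0.333 with 200 cells chosen). The immature neuron list had 1 of 7 measured genes called below, the RNA-binding protein gene Elavl3 (0.422), and a summed ratio of 0.762 (0.729 to 0.797). In the astrocyte list, Gja1, encoding the gap junction protein connexin 43 that also couples radial glia, was at 228 CPM in the 400 cells, 91.0 in S-high cells and 95.8 in marker-free cells, a ratio of 1.84 (1.68 to 2.01) to all others. The lipid carrier gene Apoe (0.481) and Sparcl1 (0.493) were called below, and for Apoe the ratio was 0.835 among cells of at least 4000 UMIs and for Sparcl1 0.746 with thinned cells. Of 12 Notch pathway genes, 0 were called in either direction. The ligand genes Dll1 and Dll3 stood at 0.690 and 0.600, the target gene Hes1 at 0.769 and the target gene Hes5 at 1.17 (0.995 to 1.36).

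Transcripts of other cell types were scarce in both sets. Summed levels in the 400 cells and the others were 0.688 and 0.666 CPM for the microglia list, 15.5 and 21.2 for the endothelial and mural list, 0.344 and 0.962 for the fibroblast list, and 24.8 and 28.1 for the ependymal list. Among stress and quality measures, the immediate early list stood at 0.679 (0.648 to 0.712), with Fos (0.467), Egr1 (0.600) and Btg2 called below of 9 measured genes. Hypoxia, unfolded protein response and heat shock lists stood at 0.961, 0.998 and 0.978 with 0 genes called. Ribosomal protein genes stood at 0.961 and mitochondrial genes at 0.824, again with 0 called. The nuclear RNA Malat1 stood at 0.858, while Meg3 and Neat1 were called below at 0.227 and 0.307 on 9 and 8 UMIs, with Neat1 at 0.568 for cells chosen on one random part of the UMIs and measured on the remainder. The part of these measures in the other differences was not tested.

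Outside the lists, the 12 genes with the highest ratios were, in order, Tnfaip8l1, Pif1, Depdc1b, Arhgef39, Gas2l3, Hyls1, Parpbp, Aspm, Prr11, Troap, Spdl1 and Cenpl. Several are known mitotic genes that the lists had not named. Aspm, a spindle pole gene whose loss causes a small brain, was at 248 CPM in the 400 cells, 24.8 in S-high cells and 5.02 in marker-free cells (ratio to others 5.88, 5.26 to 6.57), and its ratio was 9.29 with 800 cells chosen. Gas2l3, which links actin and microtubules in cytokinesis, stood at 6.98 (5.92 to 8.23), Troap, a spindle protein, at 5.19 (8.21 with 800 cells chosen), and Spdl1, an adaptor of kinetochore dynein, at 4.99. Pif1, a DNA helicase, stood at 8.87 (6.70 to 11.8), and at 5.56 with the 200 highest cells. The highest ratio, 9.56 (6.30 to 14.8) for Tnfaip8l1, rested on 72 UMIs in the 400 cells and 35 in the others. At the other end, Stmn4, a neuronal stathmin, had 1 UMI in the 400 cells and 125 in the others, a ratio of 0.0372 (0.000933 to 0.211). After thinning, a Stmn4 UMI was left in 26.7% of the 30 neuron-list-high cells. The remaining genes of the lowest 12, among them Abat (0.181), which breaks down the transmitter GABA, and the ubiquitin ligase gene Fbxo32 (0.192), had at most 12 UMIs each in the 400 cells, and most of their ratios moved by over 1.5 times in at least 1 alternative, up to 0.375 for Abat and down to 0.0557 for Fbxo32.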

How the data were processed

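Drop-seq profiles of LIF-grown primary neurospheres were analysed from 1 deposited table of raw UMI counts (whole numbers, genes by barcodes). The genome build was mm10, per the submitters' processing notes. How reads were aligned and counted and how barcodes were picked is not given in the sources used here. No column assigns a barcode to 1 of the 2 samples, so no test was run.

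Cells had at least 500 detected genes, at most 10% mitochondrial UMIs and at least 2000 UMIs, and the 400 with the highest share of the 8 markers were selected, ties going to more UMIs. The members, gene lists and rules were chosen with earlier results of these data known. Summed counts were scaled to 1000000 non-marker UMIs. Ratios have exact conditional binomial intervals, levels exact Poisson intervals and shares exact binomial (Clopper-Pearson) intervals. These are 95% intervals of counting error alone, and a count of 0 allows 3. Genes were called across all genes with at least 100 UMIs. Named were the 4 highest ratios of each G2 and M phase list, all cyclins, CDK inhibitors and D-type cyclin kinases, any gene of the 30 lists, and the 12 highest and 12 lowest genes outside them. Some genes that this rule names are not reported here. The promoters printed were chosen after their values were seen. No doublet caller was run and no cell was removed as a doublet. 12 pairs of barcodes among the 3055 cells differed by 1 base, 5 of them with 1 selected cell.

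Thinning drew 2000 UMIs per cell at random. Gene positions are from GENCODE M21 and promoters from RefSeq. The calls were tried on simulated sums for the 400 against the other cells (9716 genes, 50 per fold), drawn with counting error alone. Called were 100% of 4-fold and 82% of 2-fold rises, 96% of falls to 0.25, 46% of falls to 0.5 and 0.0105% of unchanged genes. The intervals assume the same error, so these shares do not cover variation between cells or the choice of cells by their markers. Computation used scipy 1.17.1, numpy 2.4.6 and pandas 2.3.3 under Python 3.11.15, with matplotlib 3.10.9 for plots. Alternatives varied the number of selected cells, the filters, the scaling, the depth, the barcodes and the markers used.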

Additional observations from a re-analysis of the deposited data

Results flagged for a closer look

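Among barcodes left out only for depth, 710 passed the gene and mitochondrial filters with fewer than 2000 UMIs (median 1318.5). In 61 of these, 8.59% (exact binomial interval 6.64 to 10.9), the marker share was at or above that of the lowest selected cell. These barcodes were used in no comparison, and the 13.1% of deeper cells that were selected is set beside them without a test, since the share of a shallow barcode rests on few marker UMIs.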

How the results depend on the processing

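The ratio of the G2 and M phase lists (3.06) stayed above 1 in every alternative run. It was 2.93 with 200 cells chosen, 3.39 with 800, 3.004 at no more than 5% mitochondrial UMIs, 3.22 as a mean over cells, 2.999 for cells chosen on one random part of the UMIs and measured on the remainder, 3.15 thinned, 3.01 against other cells weighted to the same depths, 3.20 without the 5% deepest cells, 3.09 without barcodes ending in an unread base and 2.94 for cells chosen by Ube2c, Aurka, Top2a and Nusap1. The S phase ratio (0.946) changed side. It was 0.833 with 200 cells, 1.21 with 800, 0.933 at no more than 5% mitochondrial UMIs and 0.978 at 4000 UMIs or more. As a mean over cells it was 1.003, on the split UMIs 0.951, thinned 1.04 and depth-weighted 0.928. Without the deepest cells it was 1.01, without unread-base barcodes 0.987 and by the 4 named markers 0.9995. The 241 genes above and 82 below became 146 and 14 with the whole interval beyond 2-fold, and 481 and 697 by the ratio alone. By ratio alone they were also 549 and 812 as a mean over cells, and 517 and 760 depth-weighted. The genes below were 41 on the split UMIs and 35 thinned, where fewer genes had enough UMIs. Of 143 called genes named or listed, followed through 14 settings, 0 changed side of 1. These genes were called from the same UMIs that most settings reuse, which favours that outcome. The setting of at least 1000 detected genes removed no cell and repeats the main values. Keeping the markers in the total only rescales all ratios alike. In 67 of 2002 pairs of gene and setting the ratio moved by over 1.5 times, not counting ratios that fell to 0. Of simulated falls to 0.5, 46% were called, so at this depth many falls of that size can be missed. No replicate could be left out because no barcode is assigned to a sample. No paired analysis was possible because the samples form 1 group and their barcodes cannot be separated.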
